A study of Mus musculus with 2 samples.

Results

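Glucose, lactate and amino acids cross cell membranes through solute carriers, and 9 families of these carriers were followed here across the cell classes of a mouse melanoma. The members were the gene features whose symbol placed them in families Slc1a, Slc2a, Slc3a, Slc5a, Slc7a, Slc16a, Slc36a, Slc38a or Slc43a, which gave 84 of 31055 gene features. Symbols alone decided which genes were members, but the families were chosen with earlier results of these data known. Of the 84, 36 had at least 100 unique molecular identifiers (UMIs, 1 per captured mRNA molecule) in the cells kept, 27 had 1 to 99 and 21 had 0. Also among the 84 were Slc7a6os, Slc36a1os and Slc36a3os, which are named for lying opposite a transporter gene and are not transporters themselves.

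The cells came from a B78ChOVA tumour, a mouse melanoma line injected under the skin of the flank in Matrigel and collected after 16 days, and were labelled as immune. Strain, sex and age of the mice, any treatment, the number of tumours and the tumour regions behind the spatial barcodes ZC1, ZC2 and ZC3 were not stated in the labels. ZipSeq writes a DNA barcode onto the cells of a lit region of a live section before the tissue is taken apart, so the 10x Genomics droplets of this study carried 2 libraries of the same cells, 1 of gene expression and 1 of spatial barcodes, which share their cell barcodes. There were no replicates, so all groups compared here are sets of cells within 1 gene expression library, no test between them was possible, and every interval printed is a 95% interval that covers counting error only.

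Of the 4236 cells kept, with a median of 23132 UMIs, 2497 passed a gate on complement C1q genes and were taken as macrophages, 443 as monocytes, 482 as T cells, 117 as dendritic cells (DC), 70 as natural killer (NK) cells and 30 as melanoma cells. A further 138 passed both the monocyte and the macrophage gate and were kept apart as intermediates. Median depth differed between classes, from 6042.5 UMIs in NK cells and 6439.5 in T cells to 29929 in macrophages and 93308 in melanoma cells. Marker genes not used in the gates were summed for each of these 6 classes, and each sum was highest in its own class. Free RNA, read from barcodes with 10 to 100 UMIs, was rich in macrophage RNA: the C1q genes summed to 10619.9 counts per 1000000 UMIs (CPM) there, 16214 CPM in macrophages and 204 CPM in T cells.

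Each family has a known task. GLUT carriers (Slc2a) let glucose pass down its gradient, and monocarboxylate carriers (Slc16a) move lactate together with a proton, MCT4 (Slc16a3) mostly outward from glycolytic cells. Amino acids enter through uniporters, sodium-coupled carriers (Slc1a, Slc38a) and exchangers of the Slc7a family, several of which need the CD98 heavy chain Slc3a2 to reach the membrane. Activated T cells and macrophages are known for raising glucose and glutamine uptake, and cells short of oxygen or of amino acids are known to induce particular members of these families.

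Promoter sequences are shown for the members on which the results turned, Slc2a1 and Slc16a3, which differed most between macrophages with high and low hypoxia scores, and Slc7a11, which differed most between monocytes and macrophages on the side of the monocytes. The windows hold the 100 bases before the annotated start in RefSeq on GRCm38.p6, read 5′ to 3′ on the gene's strand, at chr4:119108645-119108744, plus strand, for Slc2a1, chr11:120948967-120949066, plus strand, for Slc16a3 and chr3:50443614-50443713, minus strand, for Slc7a11. Capitals mark ACGTG, the core of the hypoxia response element, in the first 2 windows and TGATGNAA, the core of the amino acid response element, in the third. The gene positions printed with the levels are those of GENCODE, whose starts lie before the RefSeq starts, by only 1 base in Slc7a11, so the windows overlap the GENCODE genes.
Slc2a1: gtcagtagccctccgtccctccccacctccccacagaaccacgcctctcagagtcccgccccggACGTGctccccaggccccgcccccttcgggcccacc
Slc16a3: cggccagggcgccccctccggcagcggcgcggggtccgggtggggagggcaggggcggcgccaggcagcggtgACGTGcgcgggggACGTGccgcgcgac
Slc7a11: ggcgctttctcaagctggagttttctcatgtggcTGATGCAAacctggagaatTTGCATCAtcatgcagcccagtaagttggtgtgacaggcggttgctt

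ACGTG was searched on both strands, and CACGTG counts as 2 overlapping matches. It stood in 10 of the 63 member genes found in the table (15.9%) and in 8.09% of all 32851 windows. In Slc2a1 the match began 36 bases before the start, and in Slc16a3 the matches began 27 and 14 bases before it. The 10 genes also included Slc36a1, Slc7a6 and Slc38a7, with ratios of 0.686, 0.826 and 1.13 in hypoxia-high over hypoxia-low macrophages. Slc7a2, Slc16a6 and Slc16a1, the others called higher in that split, were not among the 10. TGATGNAA, searched on both strands, stood in 1 of the 63 (Slc7a11, 66 and 47 bases before the start, the second match on the opposite strand) and in 1.54% of all windows. For both motifs a gene was counted if any of its windows matched, while the other share is of single windows. The 2 shares are thus unlike measures and give no enrichment. These matches describe the letters of the windows and were not tested for use.

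Among the 36 members with at least 100 UMIs, melanoma cells were the highest of the 6 classes for 12 and macrophages for 11. NK cells were highest for 6, T cells and monocytes for 3 each and DC for 1. The same count was not made over all genes, so it describes no trait of the members. Some of these tops were near ties, such as Slc2a1, whose melanoma and monocyte intervals overlapped. Levels are CPM, the UMIs of a gene per 1000000 UMIs summed over a class, and are compared between classes and not between genes. Because a level is relative to all RNA of a class, more RNA of a gene and less of the others cannot be told apart.

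**Figure D1:**
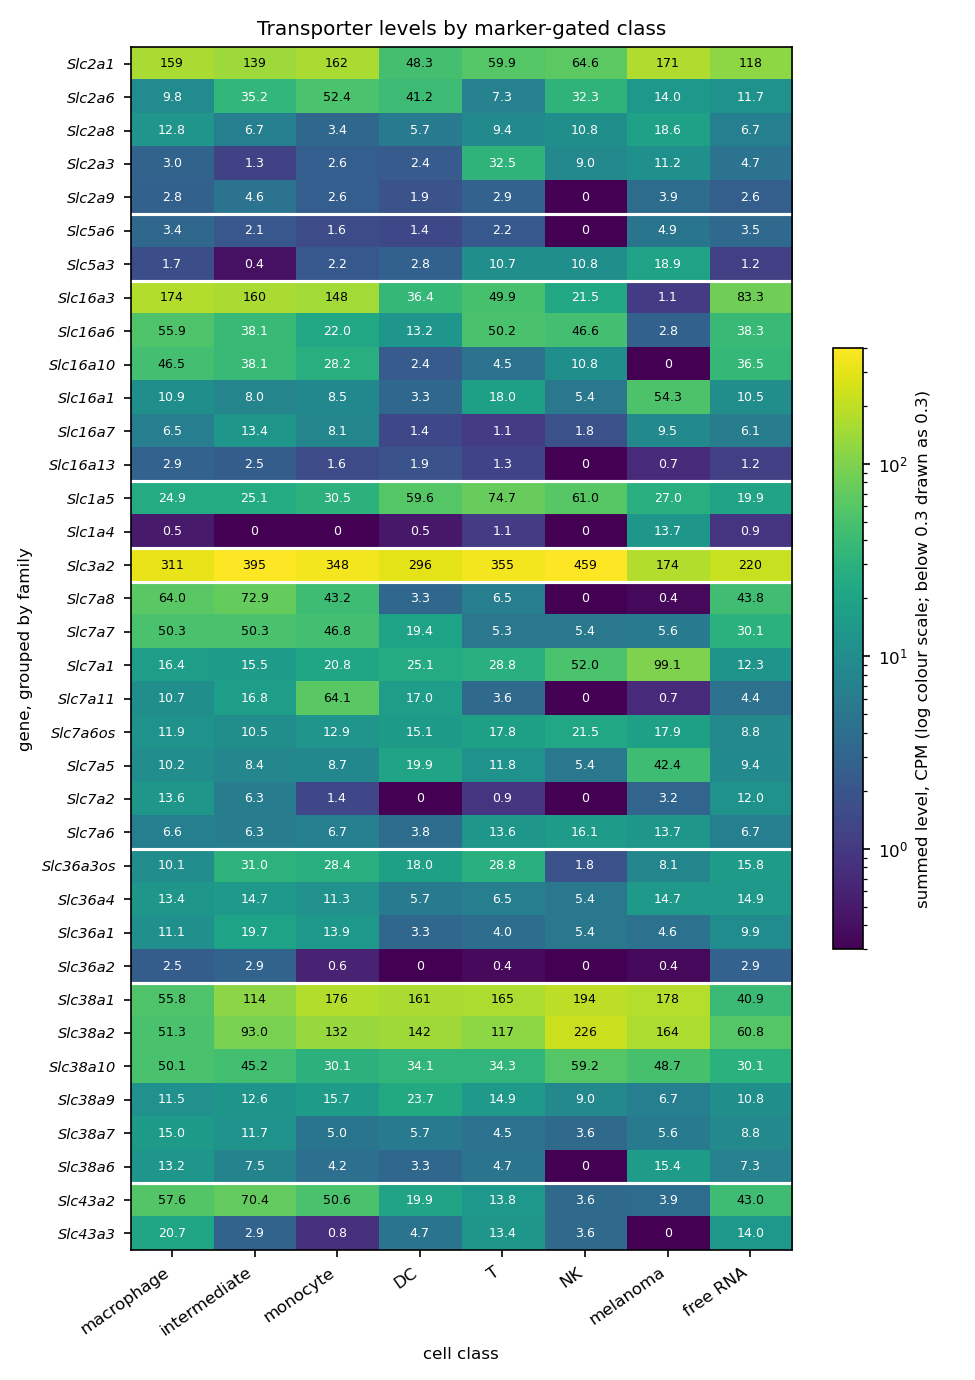
Level of the 36 members with at least 100 UMIs (rows, grouped by family) in each cell class and in free RNA (columns), as CPM of summed UMIs on a logarithmic colour scale. Slc3a2 is well filled in every column. Slc7a8, Slc16a10 and Slc7a7 are filled more in the macrophage and monocyte columns than in the DC, T, NK and melanoma columns. Slc7a1 and Slc16a1 are filled most in the melanoma column.

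Slc2a1 encodes GLUT1, the basal glucose carrier, and lies on chromosome 4 from 119108711 to 119137983 of GRCm38. Its level was 159 (156–162) CPM in macrophages, 162 (151–173) in monocytes and 171 (156–187) in melanoma cells, and 64.6 (45.2–89.4) in NK cells, 59.9 (53.6–66.7) in T cells and 48.3 (39.3–58.6) in DC. The first 3 classes had overlapping intervals, as had the last 3, and the lowest of the first group stood above the highest of the second; free RNA held 118 CPM. With every cell thinned to 5000 UMIs, Slc2a1 was seen in 38.6% of macrophages, 41.2% of monocytes, 22.1% of DC, 21.4% of T cells and 22.2% of NK cells, against 74.7%, 61.2%, 43.6%, 33.2% and 31.4% at full depth. Thinning left out 74 macrophages, 11 monocytes, 4 DC, 155 T cells and 25 NK cells for too few UMIs.

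The other glucose carriers were distributed differently. Slc2a3, which encodes GLUT3, a high-affinity carrier used by lymphocytes and neurons, stood at 32.5 (27.9–37.6) CPM in T cells, 11.2 (7.67–15.8) in melanoma cells, 8.97 (2.91–20.9) in NK cells and 2.96, 2.58 and 2.37 in macrophages, monocytes and DC. T cells were above every other class, and within them CD8 cells held 35.8 and Foxp3 cells 29.7 CPM. At 5000 UMIs a cell, 14.1% of T cells and 1.197% of macrophages showed it. Slc2a6 encodes GLUT6, a carrier of inner membranes induced in activated macrophages. It was highest in monocytes at 52.4 (46.2–59.1) CPM, followed by DC at 41.2 (32.97–50.8) and NK cells at 32.3 (19.1–51.01), and lowest in macrophages at 9.76 and T cells at 7.25; intermediates, at 35.2, lay between monocytes and macrophages. Slc2a8 (GLUT8, also an inner membrane carrier) was at 12.8 CPM in macrophages and 3.37 in monocytes. Slc2a9, a urate carrier, was at 2.81 and 2.58 CPM in these 2 classes, and the insulin-responsive GLUT4 gene Slc2a4 was at 6.31 (3.74–9.96) CPM in melanoma cells, from 18 UMIs, and 0.0498 in macrophages.

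The lactate carriers Slc16a3 and Slc16a1 differed in opposite directions between melanoma cells and macrophages or monocytes. Slc16a3 (MCT4, on chromosome 11 from 120948480 to 120960868) stood at 174 (171–177) CPM in macrophages and 148 (137–159) in monocytes, at 49.9 (44.2–56.1) in T cells, 36.4 (28.7–45.5) in DC and 21.5 (11.1–37.6) in NK cells, and at 1.05 (0.217–3.07) in melanoma cells, which held 3 UMIs in all. Foxp3 T cells, at 85.5 (68.9–105) CPM, were above CD8 T cells, at 42.4 (35.4–50.4). Slc16a1 encodes MCT1, which carries lactate in either direction. It was highest in melanoma cells at 54.3 (46.1–63.5) CPM, followed by T cells at 17.96 (14.6–21.9) and macrophages at 10.9 (10.2–11.7), with 8.53, 5.38 and 3.31 in monocytes, NK cells and DC. Both carriers need a chaperone, for which basigin (Bsg) serves, and Emb codes for a related one: Bsg was 1037 against 544 CPM, ratio 1.905, interval 1.83–1.98, and Emb 7.01 against 64.8 CPM, ratio 0.108, interval 0.06596–0.167, melanoma cells over macrophages.

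Of the other Slc16a members, Slc16a10 (TAT1, a carrier of aromatic amino acids) was at 46.5 (44.98–47.97) CPM in macrophages and 28.2 (23.7–33.2) in monocytes and at 10.8, 4.53, 2.37 and 0 in NK cells, T cells, DC and melanoma cells. Macrophages and monocytes thus stood above the other classes for Slc16a10. Slc16a6 (MCT7) was at 55.9 (54.3–57.6) CPM in macrophages, 50.2 (44.5–56.5) in T cells and 46.6 (30.5–68.3) in NK cells, whose intervals overlapped, and lower in monocytes at 22.01 (18.1–26.5) and DC at 13.2 (8.802–19.1). It overlaps Amz2 and Arsg on the opposite strand, and the labels state no strand setting for the counting. Slc16a11, with few UMIs, was highest in T cells: 37 UMIs gave 6.71 (4.72–9.25) CPM there and 2 gave 0.0249 (0.00302–0.08998) in macrophages. NK cells came next at 3.59 CPM, from too few UMIs to be told apart from T cells.

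Slc3a2 was read in every class. It stood between 296 (273–320.3) CPM in DC and 459 (405–519) in NK cells among the immune classes, with 311 in macrophages, 348 in monocytes and 355 in T cells, and lowest in melanoma cells at 174 (159–190.1). Its light chain partners Slc7a8, Slc7a7 and Slc7a5 ranged more widely over the classes. Slc7a8 (LAT2, neutral amino acids) was at 64.02 (62.3–65.8) CPM in macrophages, 43.2 (37.7–49.4) in monocytes, 6.53 in T cells, 3.31 in DC and 0.3503 in melanoma cells, with 0 UMIs in NK cells, where 3 UMIs would have been 5.38 CPM. Slc7a7 (y+LAT1, which exports cationic amino acids) was at 50.3 and 46.8 CPM in macrophages and monocytes, 19.4 in DC and 5.26 to 5.605 in T, NK and melanoma cells. It overlaps Oxa1l on the opposite strand. Slc7a5 (LAT1, large neutral amino acids such as leucine) was instead highest in melanoma cells at 42.4 (35.2–50.6) CPM, with 19.9 (14.3–26.9) in DC, 11.8 (9.098–15.03) in T cells and 10.2 (9.56–10.97) in macrophages.

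Slc7a11 encodes xCT, which takes up cystine, the source of cysteine for glutathione, in exchange for glutamate, and lies on chromosome 3 from 49892526 to 50443614. Monocytes held 64.1 (57.3–71.4) CPM, DC 17.03 (11.9–23.6), intermediates 16.8 (11.97–22.8), macrophages 10.7 (9.96–11.4), T cells 3.63 (2.22–5.602) and melanoma cells 0.701 (0.0848–2.53), and NK cells held 0 UMIs. Monocytes stood above all other classes and did not overlap any. Among the cationic amino acid carriers, which bring in arginine, Slc7a1 (CAT1) was at 99.1 (87.9–111) CPM in melanoma cells, 52.005 (34.8–74.7) in NK cells, 28.8 (24.5–33.7) in T cells and 16.4 (15.6–17.4) in macrophages. Slc7a2 (CAT2) was at 13.6 (12.8–14.4) CPM in macrophages and at most 3.15 in the other 5 gated classes, with free RNA at 11.98.

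Glutamine and small neutral amino acids enter through Slc1a5 (ASCT2), Slc38a1 (SNAT1) and Slc38a2 (SNAT2), and all 3 were lowest in macrophages. Slc1a5 was at 74.7 (67.7–82.3) CPM in T cells, 60.97 (42.2–85.2) in NK cells, 59.6 (49.7–70.97) in DC, 30.5 (25.9–35.8) in monocytes, 26.97 (21.3–33.7) in melanoma cells and 24.9 (23.9–26.1) in macrophages, the last 2 not told apart by their intervals. Slc38a1 was at 194, 178, 176, 165 and 161 CPM in NK, melanoma, monocyte, T and DC classes and 55.8 (54.2–57.5) in macrophages. Slc38a2 was at 226 (188–269) CPM in NK cells and 51.3 (49.7–52.9) in macrophages, with the other 4 classes between 117 and 164. Slc1a4 (ASCT1) was nearly limited to melanoma cells, with 13.7 (9.71–18.7) CPM there and 0.498 in macrophages. The glial glutamate carriers were low: Slc1a3 had 61 UMIs in macrophages, 0.7597 CPM, and Slc1a2 was at 0.0249 CPM there.

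Slc43a3 carries purine nucleobases and, unlike its relatives, is not known as an amino acid carrier. It was at 20.7 (19.8–21.8) CPM in macrophages, 13.4 (10.5–16.8) in T cells, 2.93 in intermediates and 0.793 (0.216–2.03) in monocytes, with 0 UMIs in melanoma cells. At 5000 UMIs a cell it was seen in 7.305% of macrophages and 0.694% of monocytes, whose full median depths were 29929 and 10343 UMIs. Slc43a2 (LAT4, which lets out large neutral amino acids) was at 57.6 CPM in macrophages, 50.6 in monocytes, 19.9 in DC, 13.8 in T cells and 3.85 in melanoma cells. Its relative Slc43a1 (LAT3) was at 0.0374 CPM in macrophages and 0.3503 in melanoma cells. Of the lysosomal carriers, Slc38a9, an arginine sensor of the lysosome, ranged from 6.66 CPM in melanoma cells to 23.7 in DC, and Slc36a1 (PAT1) was at 11.1 in macrophages and 13.9 in monocytes. Slc5a3, a carrier of myo-inositol, was at 18.9 (14.2–24.7) CPM in melanoma cells, 10.7 (8.15–13.8) in T cells and 1.69 in macrophages, but it overlaps Mrps6 on the same strand, so its UMIs are uncertain.

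A few further members had flatter or lower profiles. Slc7a6 (y+LAT2, a partner of Slc3a2 that exchanges cationic for neutral amino acids) was at 16.1 (7.38–30.6) CPM in NK cells, 13.7 (9.71–18.7) in melanoma cells and 13.6 (10.7–17.1) in T cells, and at 6.74, 6.64 and 3.78 in monocytes, macrophages and DC. Slc38a10 ranged from 30.1 (25.5–35.3) CPM in monocytes to 59.2 (40.7–83.1) in NK cells, with macrophages at 50.1. Slc38a6 was at 15.4 (11.2–20.7) CPM in melanoma cells and 13.2 (12.4–13.995) in macrophages and at most 4.72 in the other classes. Slc36a4 (PAT4) ran from 5.38 CPM in NK cells to 14.7 in melanoma cells, with 13.4 in macrophages. Slc16a7, which encodes MCT2, was at 9.46 (6.23–13.8) CPM in melanoma cells, 8.13 (5.84–11.03) in monocytes and 6.501 (5.96–7.08) in macrophages and at 1.09 in T cells. The first 3 of these Slc16a7 intervals overlapped.

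Macrophages were compared with monocytes, the cells that give rise to many tumour macrophages. A member was compared when it had at least 100 UMIs over both sets and 10 expected in the smaller, and was called higher or lower past a ratio of 2. Of 34 members compared, 8 were higher in macrophages and 5 lower, where 16.6% and 7.91% of the 10048 genes compared were; the median log2 ratio was 0.19 for the members and 0.16 for all genes. Higher in macrophages were Slc43a3 (20.7 against 0.793 CPM, ratio 26.1, interval 10.2–96.05), Slc7a2 (13.6 against 1.39 CPM, ratio 9.78, interval 4.73–24.4) and Slc36a2, a proton-coupled carrier of small amino acids (2.48 against 0.595 CPM, ratio 4.17, interval 1.405–20.4). The GLUT8 gene Slc2a8, at a ratio of 3.81 (2.37–6.56), Slc38a6, at 3.16 (2.06–5.13), and the lysosomal glutamine carrier Slc38a7, at 3.03 (2.05–4.71), were also higher.

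Lower in macrophages were the cystine carrier Slc7a11, with a ratio of 0.166 (0.146–0.1897), the GLUT6 gene Slc2a6, with 0.186 (0.162–0.215), and the glutamine carriers Slc38a1, with 0.317 (0.295–0.341), and Slc38a2, with 0.389 (0.359–0.423). Slc36a3os, opposite Slc36a3, was at 0.355 (0.297–0.427). Slc2a1 and Slc16a3 were close in both classes, with ratios of 0.982 (0.915–1.06) and 1.18 (1.097–1.27). Of 15 amino acid response genes compared, 5 were higher in macrophages and 2 lower, with a median ratio of 1.41. In the glutathione list, 2 of 10 genes compared were higher in macrophages and 1 lower, the last being glutathione reductase, Gsr (16.3 against 361 CPM, ratio 0.0452, interval 0.0421–0.0486), which is also one of the genes that checked the monocyte gate. Monocytes also held more dissociation stress RNA, 6546 CPM summed over 12 genes against 3274 in macrophages, and less cell cycle RNA, 54.5 against 1243 CPM. The neutrophil markers S100a8, S100a9, Csf3r and Mmp9 summed to 114 CPM in monocytes, 29.2 in macrophages and 1.89 in DC, and 2 of 2 compared were lower in macrophages. Csf3r held most of the sum, with 80.9 CPM in monocytes and 27.5 in macrophages, S100a8 was at 24.8 and 1.08, and none of the 4 was at 0 in these 2 classes. The part of stress and neutrophil RNA in these ratios was not tested. Among non-cycling macrophages alone, Slc43a3 stayed higher than in monocytes, by 3.15 on the log2 scale in place of 4.71, and the log2 ratio of Slc7a11 was -1.76 in place of -2.59.

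T cells differed from macrophages in many carriers. Of 35 members compared, 7 were higher in T cells and 15 lower, against 12% and 17.8% of all genes, and the median log2 ratio was -0.55 for members and 0.04 for all genes. The GLUT3 gene Slc2a3 had the highest ratio (32.5 against 2.96 CPM, ratio 10.95, interval 8.97–13.4), followed by Slc5a3 at 6.32 and the glutamine carriers Slc1a5 at 2.997 (2.69–3.33), Slc38a1 at 2.96 (2.75–3.18) and Slc38a2 at 2.28 (2.09–2.48); Slc36a3os was at 2.86 (2.399–3.397). The lowest ratios were those of Slc7a2 at 0.0668 (0.0216–0.156), Slc16a10 at 0.0976 (0.0631–0.144), Slc7a8 at 0.102 (0.0714–0.141), Slc7a7 at 0.104 (0.0699–0.1503) and Slc36a2 at 0.146 (0.0176–0.536). The MCT4 and GLUT1 genes were also lower in T cells, at 0.286 (0.253–0.323) and 0.377 (0.337–0.4205). Free RNA made up an estimated 1.92% of T cell UMIs and 8.57% of macrophage UMIs.

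T cells were set beside NK cells, the other lymphocytes, with 12 members compared. Of these, 3 were higher in T cells and 0 lower, against 10.6% and 2.53% of all genes. Those 3 were Slc36a3os (28.8 against 1.79 CPM, ratio 16.1, interval 2.84–639), Slc2a3 at 3.62 (1.52–11.3) and Slc16a3 at 2.32 (1.31–4.54). The NK value of Slc36a3os is 1 UMI, so without its highest cells NK cells held 0, and the log2 ratio against the floor of 3 counts was at least 2.35. Without its highest T cell and NK cell, the log2 ratio of Slc2a3 was 2.51 in place of 1.86. At the other end, short of the 2-fold mark, were Slc38a2 at 0.517 (0.426–0.631), Slc7a1 at 0.555 (0.372–0.855), Slc38a10 at 0.579 (0.399–0.866), Slc3a2 at 0.774 (0.679–0.885) and Slc7a6os at 0.826 (0.452–1.65). The ratios of the GLUT1 and ASCT2 genes, 0.927 (0.656–1.35) for Slc2a1 and 1.23 (0.863–1.79) for Slc1a5, had intervals that include 1.

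DC were lower than monocytes in 7 of 17 members compared and higher in 0, against 11.4% lower and 5.89% higher among all genes, with a median log2 ratio of -0.66 for members and -0.07 for all. The lowest were Slc7a8 at 0.0766 (0.0304–0.161), Slc16a10 at 0.08399 (0.0269–0.201), the lactate carrier Slc16a3 at 0.247 (0.193–0.312), Slc7a11 at 0.266 (0.183–0.376) and Slc2a1 at 0.299 (0.241–0.367). The glutamine carrier Slc1a5 was on the other side, at 1.95 (1.53–2.49), while Slc38a9, Slc7a1, Slc38a10 and Slc38a2 ran from 1.51 down to 1.08. In the 67 Cd209a DC, Slc2a1 was at 69.2 (54.5–86.6) CPM, and in the 36 Ccr7 and Fscn1 mature DC it was at 22.1 (11.8–37.9). Slc2a6 was at 50.1 and 49.4 CPM in these 2 sets and at 6.995 in the 14 cDC1. With gate cuts doubled, the log2 ratio of Slc7a11 was -0.96, short of 2-fold, in place of -1.91. Of the neutrophil markers, 2 of 2 compared were lower in DC than in monocytes, and in DC all but Csf3r were at 0; their part was not tested.

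Melanoma cells, of which 30 had passed into the immune sort, were compared with macrophages over 29 members. Higher were 6 and lower 11, against 20.6% and 18.7% of all genes. Arginine, leucine and lactate carriers led: Slc7a1 (99.1 against 16.4 CPM, ratio 6.03, interval 5.28–6.86), Slc16a1 at 4.97 (4.16–5.903) and Slc7a5 at 4.14 (3.39–5.01), followed by Slc38a2 at 3.203 (2.91–3.53) and Slc38a1 at 3.19 (2.91–3.502). Slc7a8 was lowest at 0.00547 (0.000139–0.0305) and Slc16a3 next at 0.00603 (0.00124–0.0176). Slc16a10 and Slc43a3 had 0 UMIs in melanoma cells, and against a floor of 3 counts over those cells they were at least 44.2-fold and 19.7-fold lower. Slc16a6 was at 0.0501 (0.0216–0.0988). In the list of amino acid response genes, 12 of 15 compared were higher in melanoma cells and 1 lower, with Phgdh, which opens serine synthesis, at 273 against 8.64 CPM, ratio 31.6, interval 28.5–35.1 and Asns, asparagine synthetase, at 152 against 8.37 CPM, ratio 18.2, interval 16.1–20.5. Only 6 melanoma cells had at most 5% mitochondrial UMIs, and with that limit 2 members were higher and 6 lower of 11 compared.

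**Figure D2:**
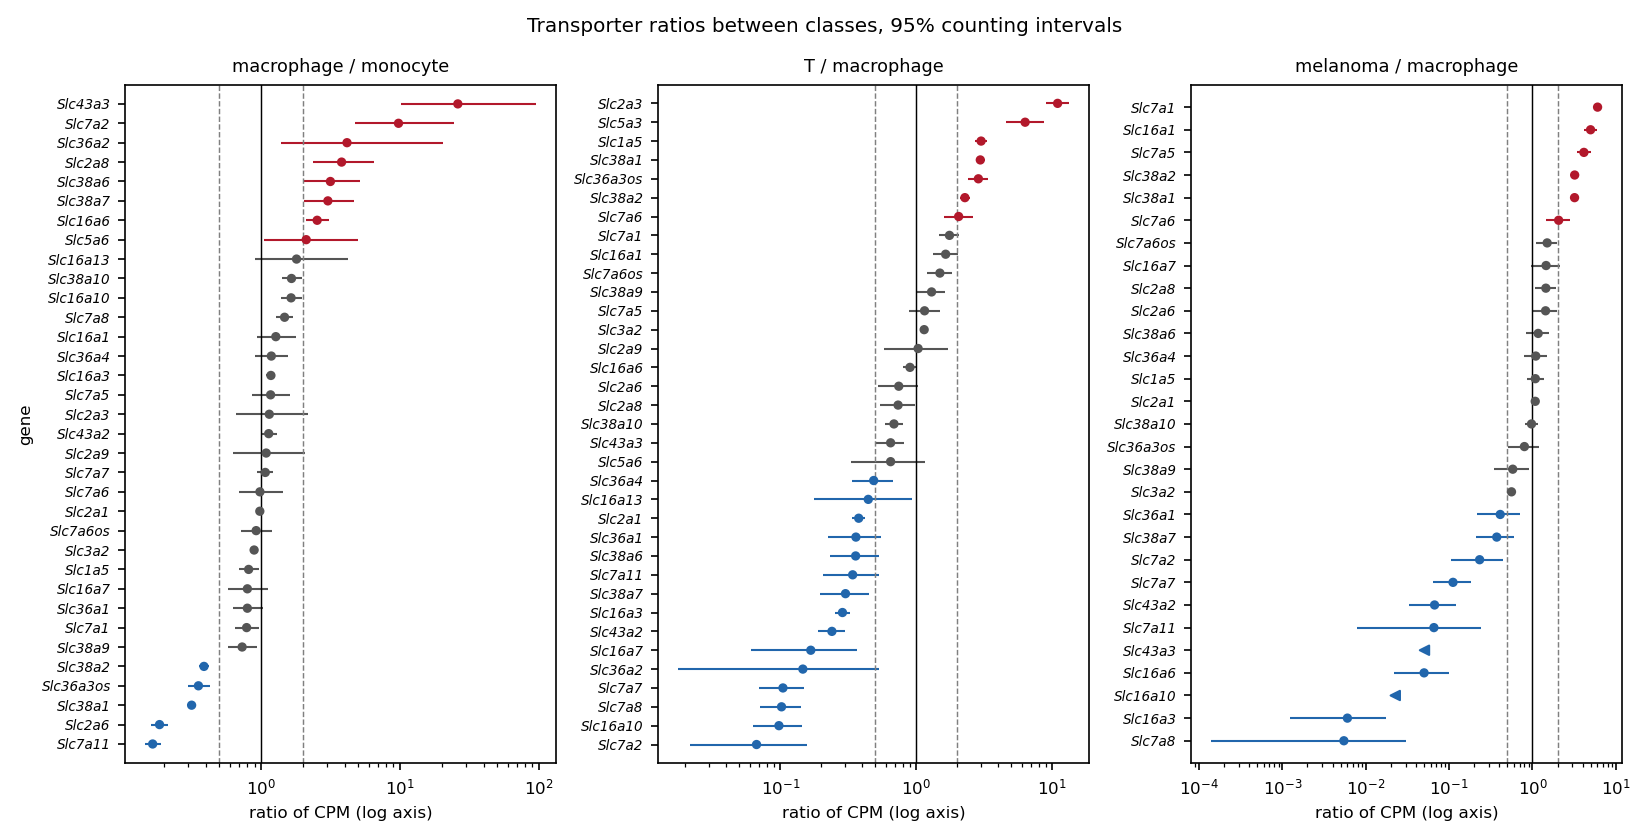
Ratio of each member's CPM between classes (horizontal log axis, bars are 95% counting intervals), with members compared on the vertical axis; red is past 2-fold higher, blue past 2-fold lower, and a left-pointing triangle marks a set at 0 UMIs put at the floor. Slc43a3 lies far to the macrophage side of monocytes at 26.1, and Slc2a3 far to the T cell side of macrophages at 10.95.

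Macrophages were next split by 13 measured genes of the hypoxia response, such as Vegfa and Bnip3, none of them a member. Each macrophage was thinned to 5000 UMIs, and 641 cells with at least 6 hypoxia UMIs were compared with 626 that had at most 1, with 1.5 as the ratio called. Because the score is a range, 105 cells lay at the upper mark and 160 lay 1 UMI below it. Slc2a1 was at 427 (418–436) CPM in hypoxia-high cells and 40.3 (37.6–43.1) in hypoxia-low cells, a ratio of 10.6 (9.87–11.4). Slc16a3 followed with 312 against 75.9 CPM, ratio 4.12, interval 3.89–4.35. The glucose importer and the lactate exporter were the members with the highest ratios. The arginine carrier Slc7a2 was at 25.5 against 6.93 CPM, ratio 3.68, interval 3.05–4.46, Slc16a6 at 1.64 (1.51–1.78) and the MCT1 gene Slc16a1 at 1.63 (1.35–1.98).

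In all, 5 of 34 members compared were higher and 7 lower in hypoxia-high macrophages, against 6.7% and 7.98% of all genes, with a median log2 ratio of -0.06 for members and -0.11 for all. Lowest were the nucleobase carrier Slc43a3 at 0.511 (0.437–0.597), Slc36a3os at 0.525 (0.419–0.655), the vitamin carrier Slc5a6 at 0.558 (0.375–0.822), ASCT2 (Slc1a5) at 0.559 (0.487–0.642) and GLUT6 (Slc2a6) at 0.5696 (0.456–0.709). Slc5a6 overlaps Atraid on the opposite strand, which held 7670 UMIs against 350 of Slc5a6, so its value is uncertain. The amino acid carriers Slc7a11 and Slc7a1 stood at 0.929 (0.764–1.13) and 0.992 (0.8504–1.16) with intervals that include 1. Glycolysis genes were higher in 13 of 14, with Hk2, hexokinase 2, at 127 against 28.5 CPM, ratio 4.44, interval 4.06–4.86, and Pfkm the exception at 2.83 against 2.69 CPM, ratio 1.05, interval 0.712–1.55. Of the partner genes, Bsg, the chaperone of MCT4, was at 856 against 385 CPM, ratio 2.22, interval 2.17–2.28. Of the arginine list, 3 of 10 were higher, among them the arginine-using enzymes Nos2 (27.7 against 0.962 CPM, ratio 28.8, interval 18.5–47.5) and Arg2 (4.699 against 0.433 CPM, ratio 10.9, interval 5.48–24.5).

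Other values moved with this split. Dissociation stress genes summed to 4079 CPM in hypoxia-high and 2966 in hypoxia-low macrophages, cell cycle genes to 1024 and 1363, and the melanocyte genes of the melanoma gate to 75.9 and 52.1. The endothelial markers Pecam1, Cdh5, Kdr and Tie1 summed to 15.7 and 8.18 CPM, with 2 of 2 compared, Pecam1 and Kdr, higher in hypoxia-high cells, while Cdh5 was at 0.0505 and 0.289 CPM and Tie1 at 0 in both. Free RNA made up an estimated 8.82% and 5.599% of their UMIs. The part of these values in the result was not tested. Among non-cycling macrophages alone, the log2 ratio of Slc2a1 was 3.29 in place of 3.41, and with cells thinned to 2500 UMIs before the split it was 2.74. In the non-cycling cells, 278 hypoxia-high and 227 hypoxia-low, 6 of 25 members compared were higher and 4 lower. The share over all genes was not computed for these smaller sets, so this count is not set beside the one above. Slc7a11 was at -0.45 in these cells on the log2 scale in place of -0.11.

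Macrophages were then split by 12 cell cycle genes, with 853 cycling cells at 3 or more UMIs after thinning and 922 non-cycling cells at 0. Of 34 members compared, 3 were higher in cycling macrophages and 7 lower, against 10.5% and 5.76% of all genes, with a median log2 ratio of -0.14 and 0.06. The nucleobase carrier Slc43a3 led (34.9 against 7.07 CPM, ratio 4.94, interval 4.21–5.82), followed by the leucine carrier Slc7a5 (15.5 against 6.38 CPM, ratio 2.43, interval 2.03–2.91) and Slc2a3 (3.49 against 2.09 CPM, ratio 1.67, interval 1.199–2.36). Slc16a10 and Slc16a1 came next, at 1.45 (1.34–1.57) and 1.41 (1.195–1.66), short of the mark. Lower in cycling cells were Slc7a2 (6.29 against 22.3 CPM, ratio 0.283, interval 0.241–0.331), Slc7a11 (5.84 against 18.9 CPM, ratio 0.309, interval 0.261–0.365), Slc2a6 at 0.552 (0.467–0.653), the urate carrier Slc2a9 at 0.579 (0.419–0.798) and Slc36a2 at 0.611 (0.444–0.838). Slc2a1 was at 0.721 (0.692–0.75003) and Slc16a3 at 1.06 (1.02–1.105), so the carriers that led the hypoxia split were not those that led this one. Amino acid response genes were higher in 6 of 15 and lower in 0, with Psat1, a serine synthesis enzyme, at 49.3 against 21.04 CPM, ratio 2.34, interval 2.12–2.59. Cycling cells were deeper, with a median of 39395 UMIs against 24981. The log2 ratio of Slc7a11, -1.70, was -1.0 in cells with at most 5% mitochondrial UMIs.

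**Figure D3:**
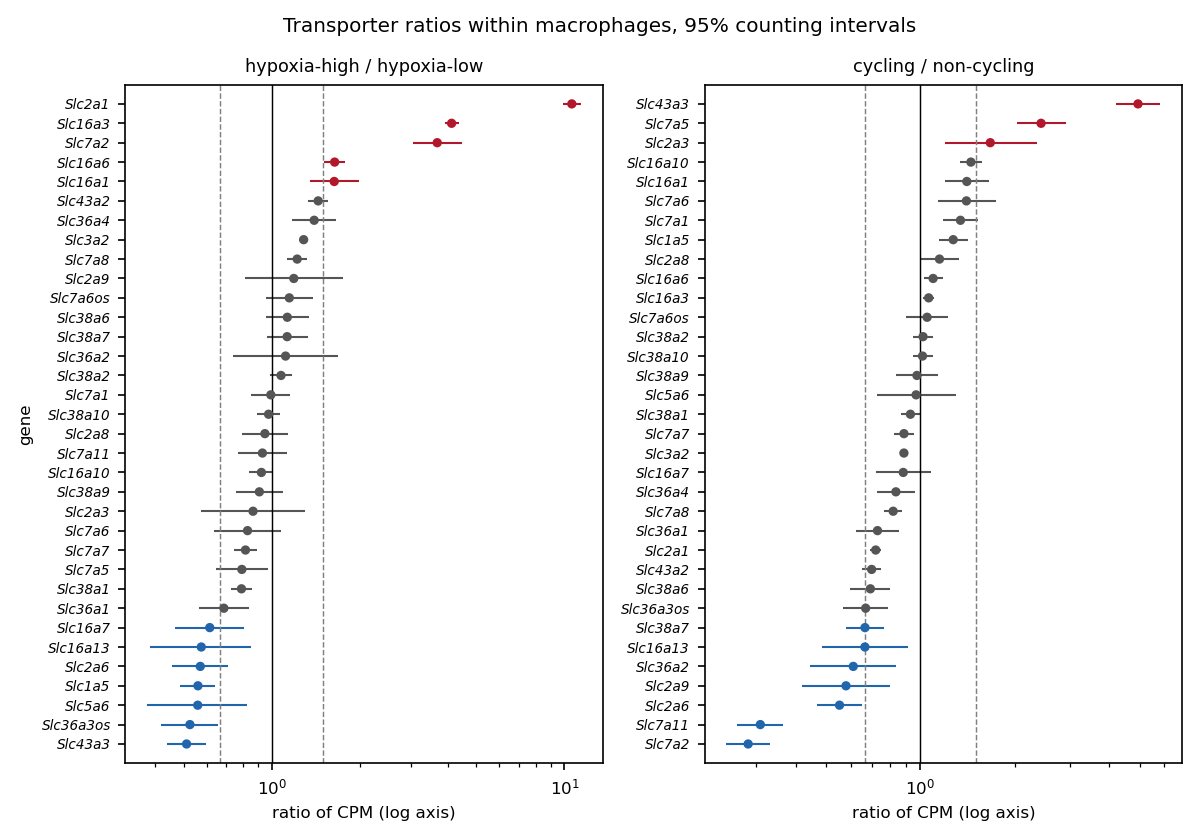
Ratio of each member's CPM within macrophages for the hypoxia split and the cell cycle split (horizontal log axis, bars are 95% counting intervals); red is past 1.5-fold higher and blue past 1.5-fold lower. Slc2a1 at 10.6 and Slc16a3 at 4.12 lead the hypoxia split, and Slc43a3 at 4.94 leads the cell cycle split.

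In CD8 T cells, 72 with high and 78 with low checkpoint receptor UMIs (Pdcd1, Havcr2, Lag3, Tigit, Tnfrsf9 and Entpd1, read at 5000 UMIs a cell) left only 6 members with enough UMIs to compare. The glutamine carrier Slc1a5 was higher in checkpoint-high cells (94.6 against 57.1 CPM, ratio 1.66, interval 1.19–2.34), and Slc38a2 (85.2 against 152 CPM, ratio 0.559, interval 0.428–0.727) and Slc16a6 (39.6 against 60.3 CPM, ratio 0.656, interval 0.435–0.985) were lower, with 9.62% of all genes higher and 6.96% lower. Slc2a1 was at 1.27 (0.878–1.85), Slc3a2 at 1.06 (0.915–1.22) and Slc38a1 at 1.03 (0.8099–1.32), with intervals that include 1. Checkpoint-high cells had a median of 12760 UMIs and checkpoint-low cells 6362.5. The ratio of Slc1a5 did not hold with each cell weighted equally, where its log2 value was 0.03 in place of 0.73. With cells thinned to 2500 UMIs before the split, the log2 value was 0.12. That split kept the marks of at least 4 and at most 1 checkpoint UMIs, which gave 39 high and 146 low cells, so other sets of cells were compared. Mitochondrial UMIs were 3.31% in checkpoint-high and 4.43% in checkpoint-low cells, and with at most 5% in a cell 0 of 5 members compared were lower, so the calls of Slc38a2 and Slc16a6 were lost.

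Spatial barcodes were read in 2 ways. When a cell took the barcode with at least 10 UMIs and 2 times the next, 1521 macrophages were ZC3, 6 were ZC1 and 9 ZC2, and among monocytes 194 were ZC3, 5 ZC1 and 9 ZC2, while 33 T cells were ZC1, 33 ZC2 and 146 ZC3. With so few cells, macrophage ZC1 over ZC3 compared 4 members, with 1 higher and 2 lower against 6.45% and 21.2% of genes, and ZC2 over ZC3 compared 11, with 4 higher and 2 lower against 7.65% and 17.3%. In the first, Slc16a3 was at 0.254 (0.1097–0.501), Slc2a1 at 0.4405 (0.228–0.7698), Slc3a2 at 0.685 (0.474–0.958) and Slc7a8 at 1.78 (1.05–2.81). In the second, Slc38a1 was highest at 2.55 (1.69–3.69) and Slc16a3 lowest at 0.624 (0.408–0.916), and Slc2a1 was among those higher at 1.61 (1.22–2.08). Monocytes compared 4 members, with 0 higher and 1, Slc2a1, lower at 0.1304 (0.0157–0.474), against 8.46% and 16% of genes. Single cells weigh heavily in sets of this size: without its highest cell, the log2 ratio of Slc7a8 in macrophage ZC1 was -0.16.

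The second way divided each barcode's share by its share in barcodes of free RNA, with 30 spatial UMIs and a lead of 1.5 times as minimum, and gave 263 ZC1, 256 ZC2 and 710 ZC3 macrophages. Slc7a11 was at 20.6 (17.4–24.2) CPM in ZC1, 15.04 (12.4–18.1) in ZC2 and 5.36 (4.49–6.34) in ZC3 macrophages, and Slc36a1, the lysosomal proton-coupled carrier, at 15.6 (12.9–18.8), 16.8 (13.97–19.996) and 7.78 (6.73–8.95). In both genes ZC3 was lowest and did not overlap the other 2. Slc7a2 was at 22.2 (18.9–25.9), 10.1 (7.92–12.6) and 6.47 (5.51–7.54) CPM and Slc2a6 at 16.5 (13.7–19.7), 13.2 (10.7–16.04) and 7.42 (6.397–8.57). Slc43a3 ran the other way at 12.8 (10.3–15.6), 19.1 (16.1–22.5) and 23.9 (22.1–25.9) CPM.

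For ZC1 over ZC3 macrophages, 5 of 30 members compared were higher and 1 lower, against 5.07% and 3.93% of all genes. Those higher were Slc7a11 at 3.84 (3.02–4.89), Slc7a2 at 3.44 (2.75–4.299), Slc2a6 at 2.22 (1.75–2.81), Slc36a1 at 2.01 (1.58–2.55) and Slc36a3os at 1.54 (1.19–1.98), and Slc43a3 was lower at 0.533 (0.424–0.664). For ZC2 over ZC3, 7 of 31 were higher and 1 lower, against 3.54% and 2.61%, led by Slc7a11 at 2.81 (2.16–3.63) and Slc36a1 at 2.16 (1.71–2.71), with the lactate carrier Slc16a3 the lower one at 0.659 (0.615–0.705). The 2 comparisons share their ZC3 cells. Slc2a1 stood at 0.891 (0.833–0.953) and 0.746 (0.694–0.801) in them, the second opposite in direction to its 1.61 by the first way of reading barcodes, and Slc16a3 at 0.792 (0.743–0.844) in the first. Without each gene's highest cell, 4 members were higher and 1 lower in ZC1, Slc36a3os being short of the mark at 1.49, and 6 were higher and 2 lower in ZC2.

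Beside these values, cell cycle genes summed to 864, 1165 and 1436 CPM in ZC1, ZC2 and ZC3 macrophages, hypoxia genes to 799.7, 685 and 889 and dissociation stress genes to 3995, 3102 and 3077. Slc43a3, Slc7a2 and Slc7a11 were also members that differed between cycling and non-cycling cells. Among non-cycling macrophages alone (117 ZC1 and 219 ZC3), ZC1 over ZC3 gave a ratio of 2.31 for Slc7a11, 2.55 for Slc7a2, 2.197 for Slc2a6 and 1.76 for Slc36a1. Each kept its direction and lay nearer to 1 than among all macrophages. Slc43a3 kept its direction at 0.261 but had too few UMIs in these sets to be compared. Of 24 members compared, the 1 called lower was Slc2a1 at 0.602, which was short of the mark among all macrophages.

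Monocytes (94 ZC1 and 114 ZC3) and T cells (144 ZC1 and 84 ZC3) allowed 9 and 7 members. In monocytes Slc43a2 (74.3 against 38.5 CPM, ratio 1.93, interval 1.33–2.83) and Slc38a1 (222 against 139.7 CPM, ratio 1.59, interval 1.302–1.94) were higher in ZC1 and Slc2a1 (115 against 238 CPM, ratio 0.486, interval 0.392–0.599) lower, against 5.53% and 4.59% of all genes. Slc7a11, which separated ZC1 from ZC3 macrophages, was at 0.794 (0.553–1.14) in monocytes, with an interval that includes 1. In T cells Slc16a6 was higher at 1.57 (1.04–2.396), and Slc16a3 (37.6 against 77.3 CPM, ratio 0.486, interval 0.325–0.718) and Slc2a1 (44.2 against 68.8 CPM, ratio 0.642, interval 0.435–0.939) were lower, against 7.44% and 10.8%. By the first way of reading barcodes, with 33 and 146 T cells, 6 members were compared, 1 higher and 2 lower against 10.6% and 29.5%: Slc3a2 was higher at 1.67 (1.34–2.07), Slc16a3 had 0 UMIs in ZC1 and 73.2 CPM in ZC3, at least 3.87-fold lower, and Slc2a1 was at 0.569 (0.205–1.27). The interval of Slc2a1 by the first reading includes 1. With at most 5% mitochondrial UMIs in a cell, that reading left 3 members to compare, 0 of them higher and 0 lower. Mitochondrial UMIs were 5.01% in ZC1 and 3.57% in ZC3 T cells by the first reading and 4.43% and 3.61% by the second. Of the checkpoint genes, 3 of 3 compared were lower in ZC1 by either reading, and the part of these values was not tested. T cells of ZC1 and ZC3 had median depths of 5109.5 and 6428.5 UMIs by the second reading. Those of ZC1 also had less RNA of hypoxia genes, 381 against 601 CPM, and of cell cycle genes, 1019 against 1715, and of 12 glycolysis genes compared 7 were lower in ZC1 and 0 higher.

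**Figure D4:**
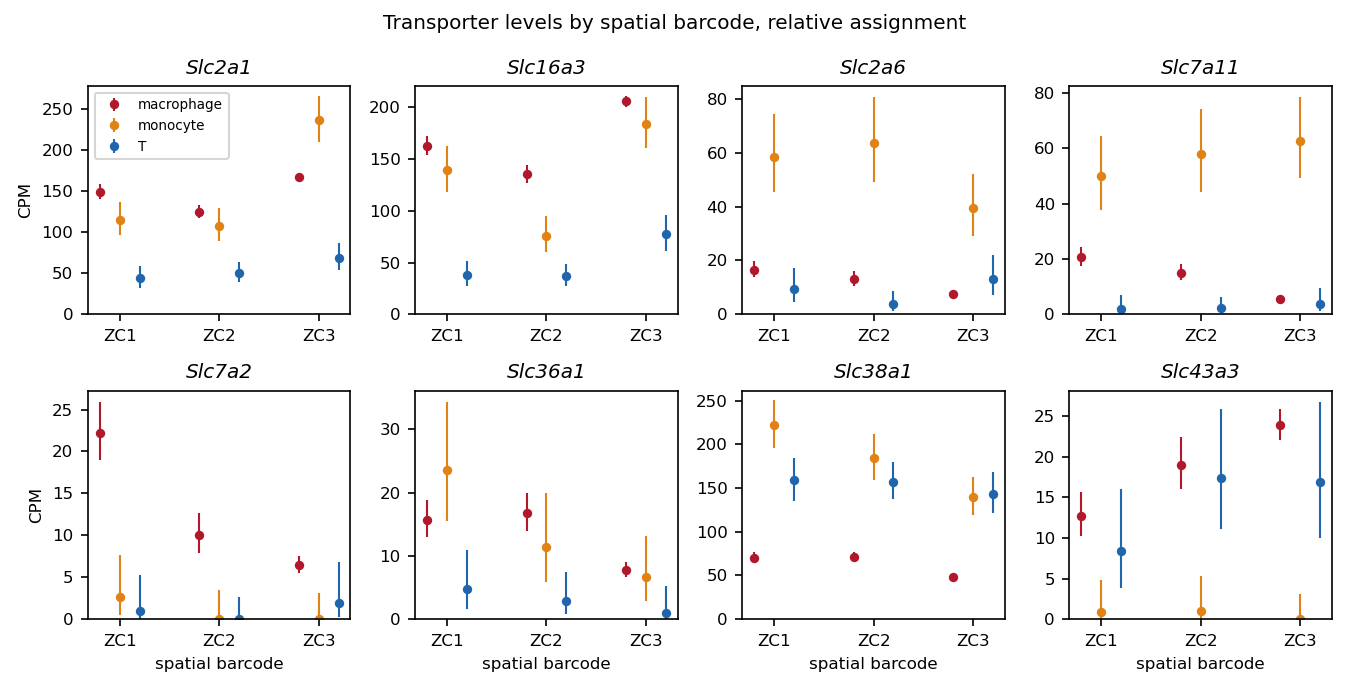
Level in CPM (vertical axes from 0, bars are 95% counting intervals) of 8 members by spatial barcode under the relative assignment, in macrophages (red), monocytes (orange) and T cells (blue). Slc7a11 in macrophages drops from 20.6 CPM in ZC1 to 5.36 in ZC3, and Slc2a1 in monocytes is at 115 in ZC1 and 238 in ZC3.

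The remaining members were too rare to compare. Those with 0 UMIs in the cells kept included sodium-glucose carriers of gut and kidney (Slc5a2, Slc5a4a, Slc5a4b, Slc5a9, Slc5a10), the liver and islet glucose carrier Slc2a2, the thyroid iodide carrier Slc5a5, the choline carrier Slc5a7, the glutamate carriers Slc1a1, Slc1a6 and Slc1a7, and Slc38a4, Slc38a5, Slc38a8, Slc38a11, Slc16a8, Slc16a12, Slc2a7, Slc5a8, Slc5a12 and Slc7a12. Over 4236 cells a count of 0 allows a share of cells with a UMI of up to 0.0708%, a limit on capture of a UMI at these depths and not on expression. The 27 members with 1 to 99 UMIs included Slc16a11, Slc1a2, Slc1a3, Slc2a4 and Slc43a1, whose levels are given with their families.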

How the data were processed

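Gene expression and spatial barcodes were counted in 10x Genomics droplets as 2 libraries of the same cells. Both were deposited by the authors in 1 unfiltered matrix of UMI counts, made with Cell Ranger 4.0.0 on mm10 per the submitters' processing notes; the annotation release, the strand setting and the cell calls are not stated in the labels. Feature names and barcodes came from the deposited feature and barcode lists and carry no measurement. The matrix held 117528298 gene UMIs, 14355102 spatial barcode UMIs and 31055 gene features, and all values were whole.

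Barcodes with at least 1000 gene UMIs, 500 genes and at most 10% mitochondrial UMIs were kept. Classes were gated on summed marker UMIs per 10000, at 5 for T, 2.5 for NK, 8 for DC and 20 for monocyte, macrophage, melanoma and B cells, cuts set on the marker distributions after the file was seen. The numbers of cells within 1.5 times of a cut were 105 for T, 22 for NK, 92 for DC, 422 for monocytes, 96 for macrophages and 14 for melanoma cells. No doublet caller was run: 181 barcodes past the gates of 2 lineages were set aside, save that the monocyte gate was read only in barcodes past no other gate but the macrophage gate, since its markers were also read in T, NK and DC cells. A further 265 cells passed no gate and 13 were B cells. The members, gene lists and comparisons were chosen with earlier results of these data known.

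Counts were summed over each set and scaled to CPM, with exact Poisson intervals; ratios had exact conditional binomial intervals, at 95%. Where a set had no UMI of a gene, its ratio was taken against 3 counts as a floor. Named members were a written list and the 5 highest and 5 lowest ratios of each comparison; genes of other lists were named only from the 2 highest and 2 lowest of each. Slc16a11, Slc2a4 the members in CD8, Foxp3 and DC subsets and the neutrophil and endothelial markers were picked after their values were seen. Hypoxia, cell cycle and checkpoint UMIs were read after thinning each cell to 5000 UMIs, and all UMIs entered the levels compared. Alternatives changed the cell limits, gate cuts, weighting, free RNA, thinning, classes and barcode rule. Cells that took a barcode by the stated rule left too few macrophages, so the relative rule stands beside it. Simulated counts had 200 genes raised or lowered 2-fold and the rest unchanged. The true ratio lay in the interval for 95.4% of 10022 genes for macrophages over monocytes and 95.5% of 9738 for the hypoxia split. For macrophage ZC1 over ZC3 by the relative rule it did so for 95.3% of 9433. The counts were drawn from the counting error model that the intervals assume, so such coverage was built in. The simulation held no differences between cells and says nothing on that spread. Gene positions are those of GENCODE M21 on GRCm38, the reference supplied here. The software was scipy 1.17.1 and numpy 2.4.6 under Python 3.11.15, with pandas 2.3.3, igraph 0.11.9, scikit-learn 1.9.0 and matplotlib 3.10.9.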

Additional observations from a re-analysis of the deposited data

How the results depend on the processing

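With 1 library, no alternative carries a test, and there was no replicate to leave out. No paired analysis was possible because the 2 samples are libraries of the same cells and no groups of samples exist. Over 1874 log2 ratios of single members recomputed under the alternatives, 1667 stayed within the counting interval, 199 moved outside it and 8 past the fold changed sign. Leaving out each gene's highest cell, the non-cycling restriction and the relative assignment with it were chosen after seeing the data. Clusters gave no DC class, so DC over monocytes has no value under that alternative. Apart from the relative assignment of whole classes, no share over all genes was computed for the alternatives, here or above. Counts of members called that moved by over 1.5 times, or to or from 0, were as follows. Smaller changes in a count are not listed.

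At most 5% mitochondrial UMIs gave 2 members lower in T over NK cells, 2 higher and 6 lower in melanoma over macrophages, 0 lower in checkpoint-high CD8 T cells, 0 higher in macrophage ZC1 over ZC3, 0 higher and 1 lower in macrophage ZC2 over ZC3, and 0 higher and 0 lower in T cell ZC1 over ZC3, with 3 to 11 members compared in each. Equal cell weights gave 1 lower in T over NK cells, 1 higher in DC over monocytes, 1 lower in macrophage ZC2 over ZC3, and 2 higher and 1 lower in T cell ZC1 over ZC3. At least 30 UMIs gave 1 higher in DC over monocytes, 3 higher in checkpoint-high cells and 5 higher in cycling macrophages. Doubled gate cuts gave 1 higher in DC over monocytes, 2 higher and 1 lower in checkpoint-high cells, 2 higher in macrophage ZC2 over ZC3 and 1 lower in T cell ZC1 over ZC3. Thinning to 2500 UMIs gave 2 higher and 1 lower in checkpoint-high cells and 3 lower in hypoxia-high macrophages.

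The relative assignment gave 5 higher and 1 lower in macrophage ZC1 over ZC3, 7 higher and 1 lower in macrophage ZC2 over ZC3, and 2 higher in monocyte ZC1 over ZC3, with 30, 31 and 9 members compared. Without the highest cell, macrophage ZC1 over ZC3 gave 0 higher, macrophage ZC2 over ZC3 gave 2 higher and monocyte ZC1 over ZC3 gave 4 lower. Non-cycling macrophages alone gave 4 lower in the hypoxia split, and under the relative assignment 5 higher and 1 lower in ZC1 over ZC3 and 7 higher in ZC2 over ZC3.

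Log2 ratios that changed sign were -0.425 for Slc7a6 in melanoma over macrophages at 5% mitochondrial UMIs, 0.050 for Slc2a1 in macrophage ZC1 over ZC3 with equal weights, -0.164 for Slc7a8 there without its highest cell, and, in macrophage ZC2 over ZC3 under the relative assignment, -0.423 for Slc2a1 and -0.479 for Slc16a10. In non-cycling macrophages under that assignment they were -0.442 for Slc2a1, -0.649 for Slc16a10 and 0.056 for Slc38a10. The stated assignment held 6 and 9 macrophages in ZC1 and ZC2, and the 5% limit 6 melanoma cells; the cause of the other changes was not tested. Depth limits members with fewer than 100 UMIs, lymphocytes above all.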
